A study of Homo sapiens with 6 samples.

Results

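The EGF receptors and their ligands were taken as 10 genes, namely the receptors EGFR, ERBB2, ERBB3 and ERBB4, the ligands AREG, EREG, HBEGF, TGFA and BTC, and the receptor inhibitor ERRFI1. They were chosen by matching the gene name in the count tables, where 9 of the 10 had a row among the 32029 genes listed. No row carried the name ERBB4, which was not analysed here. RNA came from SW480, an established human colorectal cancer cell line. Control siRNA was transfected into 3 cultures (siControl, labelled siNC, genotype given as WT). The other 3 were transfected with siRNA against ZEB1 (siZEB1, genotype given as ZEB1 knockdown), and all were collected 48 h after transfection. All 6 cultures belonged to 1 cell line, and no treatment other than siRNA is given. The paper speaks of siRNAs against ZEB1 in the plural without giving their number. No siRNA sequence is given in the sources used here.

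The EGF receptors are tyrosine kinases at the cell surface that act in pairs. A ligand of the EGF family is made as a membrane-anchored precursor, is cut free by a protease, and joins receptors into dimers whose phosphorylated tails recruit adaptors that switch on the RAS to ERK and the PI3K to AKT cascades. EGFR signaling is known for its part in the growth of colorectal cancer cells. ERRFI1 (also called MIG6) closes a feedback loop by binding the activated kinase and promoting its uptake into the cell.

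The deposited reads per gene summed to between 19040636 and 22357633 per culture. After low counts were filtered out, 14996 genes remained and were compared with the two-sided quasi-likelihood test of edgeR, and p was adjusted over all of them by the Benjamini-Hochberg method. A gene is said to be called when its adjusted p was under 0.05. Levels are CPM, the reads of a gene per megaread of TMM-scaled library size, as mean ± SD over 3 cultures. Log2 fold changes are positive where siZEB1 was higher and carry their standard error (SE). The paper describes the replicates as biological and the labels do not say how the cultures were separated, so the p-values measure the spread between these 6 libraries. ZEB1 itself fell from 54.2 ± 6.24 to 7.51 ± 0.843 CPM (SD, n = 3 each). Of 7 markers of a colon epithelial line, all 7 had a row and 6 passed the filter, and they summed to 4813 to 5437 CPM with siControl and 5329 to 6002 CPM with siZEB1. EPCAM was at 52.3 to 56.8 CPM with siControl and 437 to 463 CPM with siZEB1, KRT19 at 71.0 to 73.1 and 203 to 234 CPM, and VIL1 at 3.53 to 4.51 and 19.4 to 22.3 CPM. CDX2 went the other way, at 95.1 to 109 CPM with siControl and 40.2 to 44.8 CPM with siZEB1. The part of these markers in the results here was not tested. KRT8 (3304 to 3676 CPM) and KRT18 (1267 to 1567 CPM) overlapped between the groups, and LGALS4 was at 0.424 CPM or less. Of the blood cell markers, PTPRC had no row, and CD3E and CD68 had at most 3 reads in any culture. The summed level of the endothelial markers was 1.54 to 2.72 CPM, and that of the fibroblast markers was 7.73 to 10.8 CPM, nearly all of it COL1A1.

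Of the 10 genes, 7 passed the filter. ERBB2, ERBB3 and TGFA were called higher in the siZEB1 cultures, EGFR, HBEGF and ERRFI1 were called lower, and AREG was not called. For comparison, 19.0% of all tested genes were called higher and 21.2% lower, 40.2% in either direction. The siControl and siZEB1 values did not overlap for 6 of the 7, against 49.5% of all tested genes. The median log2 fold change was 0.20 over the 7 genes and -0.0055 over all genes tested. Only 2 of these changes, the fall of EGFR and the rise of ERBB3, were both called and above 1.5-fold. At a 1.5-fold change with an unadjusted p under 0.05, 3 of the 7 passed, ERBB3 and AREG higher and EGFR lower, against 7.21% of tested genes higher and 9.35% lower.

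**Figure D1:**
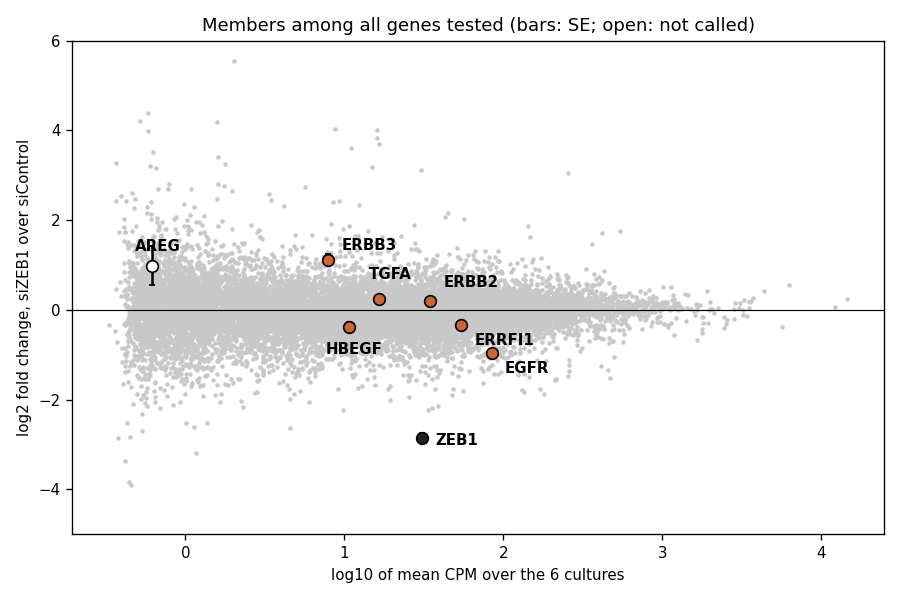
Log2 fold change of siZEB1 over siControl against the log10 of the mean CPM for all 14996 tested genes (grey), with the 7 tested genes of the EGF receptor system and ZEB1 marked. Bars are SE, orange points were called, and the open point (AREG) was not. ERBB3 lies at 1.12 and EGFR at -0.96, while ERBB2, TGFA, HBEGF and ERRFI1 lie between -0.38 and 0.24.

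ZEB1 binds E-box sequences with its zinc fingers, and the promoters of the 10 genes were searched for CAGGTG and CAGGTA on both strands (CACCTG and TACCTG when read on the other strand). The windows were the 250 bases before and 50 bases after the gene's start in RefSeq (GRCh38.p14), 1 window per gene and the first one listed where there were more. RefSeq windows were matched for 9 of the 10 genes, all but ERBB3. All 5 ligands held at least 1 match, AREG 3 and EREG, HBEGF, TGFA and BTC 1 each in the first window, and a second TGFA window held 2 more. The windows of EGFR, ERBB2, ERBB4 and ERRFI1 held none. The ERBB2 window spans chr17:39687844-39688143, at the upstream end of the annotated gene, and other ERBB2 starts were not searched. Of 27305 promoters, 20.6% held CAGGTG, 9.68% held CAGGTA and 28.0% held either. In AREG the matches began 248 and 19 bases before the start and 11 bases after it, in HBEGF 248 bases before, and in TGFA 12 bases after. A match is a string of letters and says nothing about binding in these cells. Given here are the windows of EGFR, which fell the most, of HBEGF and TGFA, which moved in opposite directions, and of AREG, with 3 matches in 1 window. They span chr7:55018767-55019066 (forward), chr5:140346554-140346853 (reverse), chr2:70553777-70554076 (reverse) and chr4:74444886-74445185 (forward), are written 5′ to 3′, and carry the matches in capitals.
EGFR: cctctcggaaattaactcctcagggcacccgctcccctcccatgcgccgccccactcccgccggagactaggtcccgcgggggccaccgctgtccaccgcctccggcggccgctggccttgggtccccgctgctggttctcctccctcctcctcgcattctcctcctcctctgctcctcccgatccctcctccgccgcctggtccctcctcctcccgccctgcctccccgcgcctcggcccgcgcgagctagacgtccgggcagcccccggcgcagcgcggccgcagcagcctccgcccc
HBEGF: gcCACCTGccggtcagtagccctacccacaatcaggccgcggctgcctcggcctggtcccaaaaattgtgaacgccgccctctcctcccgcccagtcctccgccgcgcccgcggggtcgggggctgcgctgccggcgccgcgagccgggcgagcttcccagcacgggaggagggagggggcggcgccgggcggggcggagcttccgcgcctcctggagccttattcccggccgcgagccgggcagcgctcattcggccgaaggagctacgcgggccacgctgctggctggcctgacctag
TGFA: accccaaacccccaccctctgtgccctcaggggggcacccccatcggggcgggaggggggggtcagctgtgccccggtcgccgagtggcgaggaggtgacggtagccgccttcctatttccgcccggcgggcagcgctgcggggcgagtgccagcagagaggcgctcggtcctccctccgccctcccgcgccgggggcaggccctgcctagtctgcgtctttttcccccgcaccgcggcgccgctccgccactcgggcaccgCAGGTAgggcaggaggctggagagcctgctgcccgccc
AREG: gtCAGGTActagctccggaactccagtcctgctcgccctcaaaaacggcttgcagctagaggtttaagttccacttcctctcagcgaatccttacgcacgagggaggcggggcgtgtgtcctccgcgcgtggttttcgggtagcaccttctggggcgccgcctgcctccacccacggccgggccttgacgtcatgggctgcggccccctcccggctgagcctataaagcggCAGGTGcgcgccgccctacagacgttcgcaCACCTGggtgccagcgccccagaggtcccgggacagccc

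EGFR (ENSG00000146648, GRCh38 chromosome 7 from 55019021 to 55211628, forward strand), the receptor that binds AREG, TGFA and HBEGF, drew 2525, 2647 and 1901 reads under siControl and 1090, 988 and 1210 reads under siZEB1. On the CPM scale these were 119, 118 and 98.6 with siControl and 57.7, 51.4 and 63.2 with siZEB1. Every siControl culture lay above every siZEB1 culture, and siControl replicate 3, the lowest of its group for EGFR, was also the lowest of its group for ZEB1 at 47.1 CPM. The mean fell to 57.4 ± 5.92 CPM from 112 ± 11.5 CPM (SD, n = 3 each), which is -48.6%. In bulk RNA, fewer cells with a transcript and less of it per cell cannot be told apart. The log2 fold change was -0.96 (SE 0.087, adjusted p = 1.64e-07 in edgeR's quasi-likelihood test), and 6.52% of all tested genes had a larger change in either direction. An antisense gene, EGFR-AS1, covers 1.49% of the exonic bases of EGFR and had between 0 and 5 reads per culture.

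ERBB3 (ENSG00000065361, chromosome 12 from 56076799 to 56103505, forward strand) encodes a receptor with a weak kinase that binds neuregulins and signals through its partners, chiefly to PI3K. Its siControl cultures gave 98, 113 and 102 reads, and its siZEB1 cultures 203, 202 and 214. The siControl cultures were at 4.61, 5.05 and 5.29 CPM, and the siZEB1 cultures at 10.8, 10.5 and 11.2 CPM. Within each group the cultures lay close together, and the lowest siZEB1 culture was nearly double the highest siControl culture. ERBB3 rose from 4.98 ± 0.346 to 10.8 ± 0.342 CPM (SD, n = 3 each). In edgeR's test the log2 fold change was 1.12 (SE 0.12) with an adjusted p = 1.03e-06. This was 2.17-fold and the largest rise among the 10 genes that was called.

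ERBB2 (ENSG00000141736, chromosome 17 from 39687914 to 39730426, forward strand) encodes the receptor with no known ligand of its own that serves as the preferred partner of the others. Under siControl 719, 718 and 598 reads were counted, and under siZEB1 725, 751 and 655. Scaled to CPM, siControl gave 33.8, 32.1 and 31.0, and siZEB1 gave 38.4, 39.1 and 34.2. The groups did not overlap, although siZEB1 replicate 3 exceeded siControl replicate 1 by less than the spread within either group. ERBB2 rose by 0.20 on the log2 scale (SE 0.079, adjusted p = 0.0478 in edgeR's test), with a 95% interval from 0.038 to 0.37. The call was lost with DESeq2's Wald test (adjusted p = 0.0569), with total library size as the only scaling (0.0548), with no filter on low counts (0.0947), and in 4 of the 6 fits that left out 1 culture. Those 4 left out siControl replicate 2 or 3 or siZEB1 replicate 1 or 2, with adjusted p from 0.1 to 0.179. Antisense exons of MIEN1 and PGAP3 cover 7.41% of ERBB2's exonic bases, and the strand setting of the counting is not given in the sources used here.

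**Figure D2:**
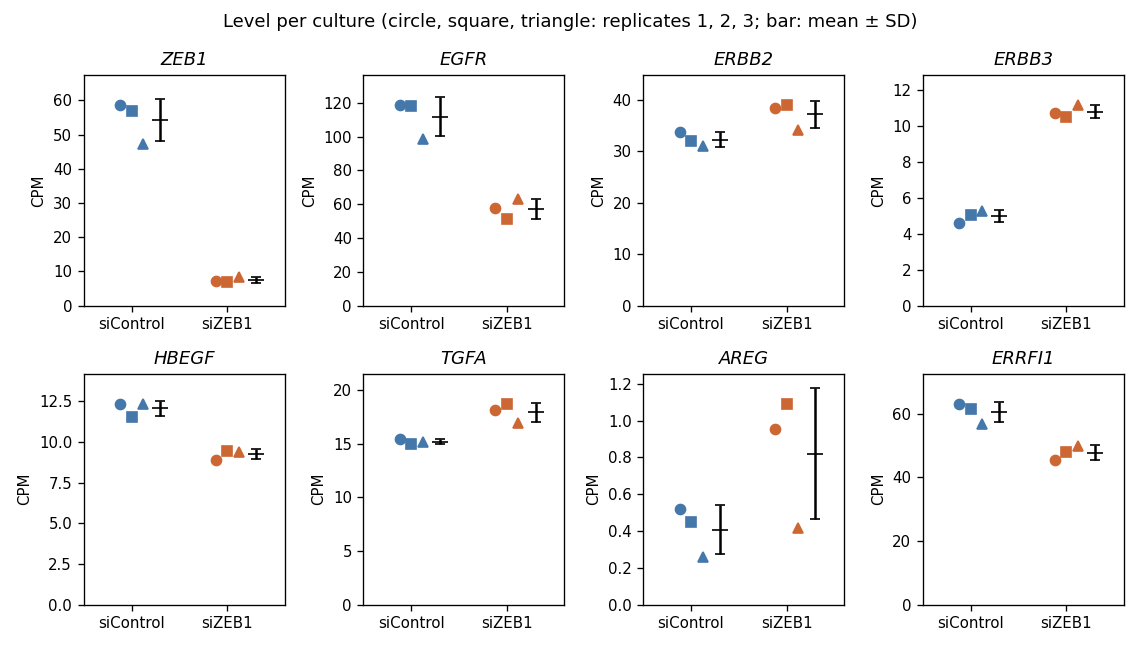
Level in CPM of ZEB1 and the 7 tested genes of the EGF receptor system in each culture, with siControl in blue and siZEB1 in orange. Circles, squares and triangles are replicates 1, 2 and 3, bars are mean ± SD (n = 3), and each axis starts at 0. AREG is the only panel of the 8 in which the groups overlap, with siZEB1 replicate 3 at 0.418 CPM among the siControl values.

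HBEGF (ENSG00000113070, chromosome 5 from 140332843 to 140346631, reverse strand), the heparin-binding ligand that engages EGFR and ERBB4, was read 262, 258 and 238 times under siControl and 168, 182 and 180 times under siZEB1. Its siControl values were 12.3, 11.5 and 12.3 CPM, and its siZEB1 values were 8.90, 9.47 and 9.40 CPM. All siZEB1 cultures were below all siControl cultures. The mean of HBEGF fell to 9.26 ± 0.311 CPM from 12.1 ± 0.469 CPM (SD, n = 3 each). The log2 fold change was -0.38 (SE 0.10), with an adjusted p = 0.00655 in edgeR's test.

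TGFA (ENSG00000163235, chromosome 2 from 70447280 to 70554193, reverse strand) encodes transforming growth factor alpha, a ligand of EGFR that many epithelial cells make for themselves. Counts were 328, 335 and 293 under siControl and 342, 360 and 324 under siZEB1, or 15.4, 15.0 and 15.2 CPM against 18.1, 18.7 and 16.9 CPM. The siControl cultures were nearly equal, and the 3 siZEB1 cultures all lay above them. TGFA rose by 0.24 on the log2 scale (SE 0.089, adjusted p = 0.0408 in edgeR's test), with a 95% interval from 0.051 to 0.43. The call was lost with DESeq2's Wald test (adjusted p = 0.0741), with no filter on low counts (0.113), and in 5 of the 6 fits that left out 1 culture, those without any 1 siControl replicate or without siZEB1 replicate 1 or 2 (0.0604 to 0.143). The 2 ligands with more than 10 CPM in siControl thus had opposite signs.

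AREG (ENSG00000109321, chromosome 4 from 74445134 to 74455009, forward strand) encodes amphiregulin, a ligand of EGFR. It was scarce, counted at 11, 10 and 5 under siControl and at 18, 21 and 8 under siZEB1, or 0.517, 0.447 and 0.259 CPM against 0.953, 1.09 and 0.418 CPM. The third siZEB1 culture lay within the siControl values. The log2 fold change of 0.98 (SE 0.43) did not pass (adjusted p = 0.0821 in edgeR's test), and its 95% interval ran from 0.065 to 1.90. Without siZEB1 replicate 3 it was 1.30 and passed (adjusted p = 0.0235 in edgeR's test), and without siControl replicate 3 it was 0.76 and did not (adjusted p = 0.212).

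EREG (ENSG00000124882, chromosome 4 from 74365143 to 74388751, forward strand), epiregulin, went without a read in all 3 siControl cultures (0 each), and siZEB1 gave it 2, 1 and 1. BTC (ENSG00000174808, chromosome 4 from 74744759 to 74794686, reverse strand), betacellulin, had a single read, in siZEB1 replicate 2. Neither passed the filter. A count of 0 allows up to 3 reads, which is 0.134 to 0.158 CPM at these depths, and both genes stayed below that limit in every culture, so that a difference was not detectable at this depth. These limits cover counting error only.

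ERRFI1 (ENSG00000116285, chromosome 1 from 8004404 to 8026308, reverse strand), the feedback inhibitor, was counted 1342, 1378 and 1096 times under siControl and 857, 923 and 954 times under siZEB1. In CPM the siControl cultures were at 63.1, 61.5 and 56.9, and the siZEB1 cultures at 45.4, 48.0 and 49.8. The groups did not overlap. Its mean fell to 47.7 ± 2.24 CPM from 60.5 ± 3.25 CPM (SD, n = 3 each), a change of -21.1%. The log2 fold change was -0.34 (SE 0.071), with an adjusted p = 0.00101 in edgeR's test. An antisense gene covers 3.70% of its exonic bases.

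Levels of different genes were compared per length, as CPM divided by the kilobases of exon that GENCODE 29 annotates for the gene. Annotated exons sum to 12521 bases for EGFR and 10321 for ERBB2, but their transcripts with the longest coding sequence have 9821 and 4545 bases. The order of the genes depends on this choice of length, and no other length was tried. In the siControl cultures the order was ERRFI1 at 14.5 ± 0.778, EGFR at 8.93 ± 0.916, HBEGF at 4.0 ± 0.156, ERBB2 at 3.13 ± 0.137, TGFA at 3.06 ± 0.0470, ERBB3 at 0.551 ± 0.0382 and AREG at 0.247 ± 0.0809 CPM per kb (SD, n = 3). Of the neighbors in this order, only ERBB2 and TGFA had overlapping values. In the siZEB1 cultures, ERRFI1 at 11.4 ± 0.534 and EGFR at 4.59 ± 0.473 CPM per kb kept the top, while HBEGF at 3.07 ± 0.103 came below TGFA at 3.61 ± 0.184 and ERBB2 at 3.61 ± 0.254. TGFA and ERBB2 overlapped again, and ERBB3 at 1.20 ± 0.0378 and AREG at 0.498 ± 0.216 CPM per kb followed.

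**Figure D3:**
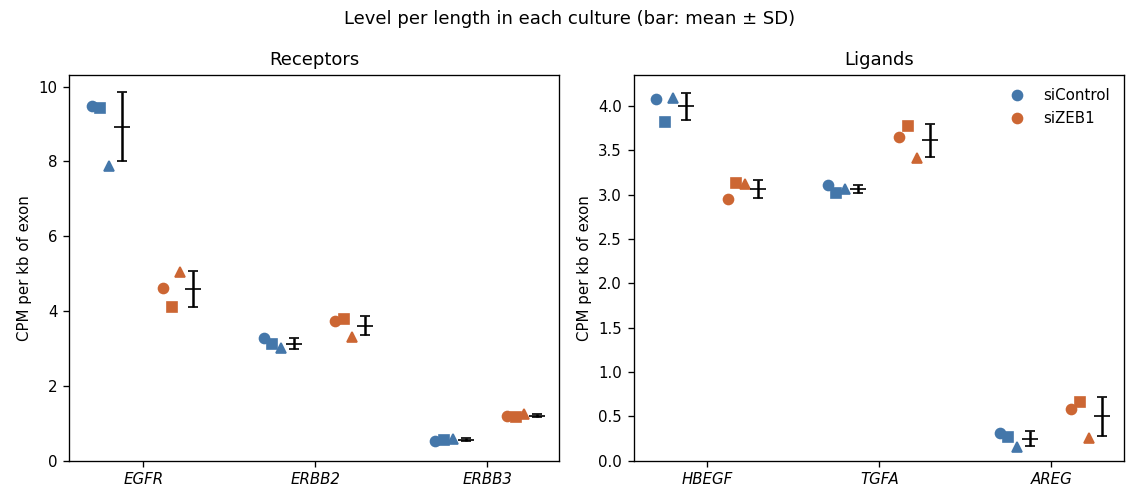
Level per length, in CPM per kb of annotated exon, of 3 receptors (left) and 3 ligands (right) in each siControl (blue) and siZEB1 (orange) culture. Circles, squares and triangles are replicates 1, 2 and 3, and bars are mean ± SD (n = 3). EGFR stands at 7.88 to 9.48 with siControl and 4.10 to 5.05 with siZEB1, and TGFA and HBEGF change places.

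The 3 receptors with reads shifted in their proportions. Of their summed level per length, EGFR made up 71.5%, 72.0% and 68.7% in the siControl cultures and 48.4%, 45.3% and 52.6% in the siZEB1 cultures. ERBB2 made up 24.9% ± 1.26 and 38.5% ± 3.68, and ERBB3 made up 4.40% ± 0.643 and 12.7% ± 0.214 (SD, n = 3 each). The summed level of the 3 receptors was 12.6 ± 0.997 CPM per kb with siControl and 9.39 ± 0.298 CPM per kb with siZEB1, without overlap. EGFR stood at 18.6, 16.9 and 13.5 times the level of ERBB3 in the siControl cultures and at 3.88, 3.53 and 4.08 times in the siZEB1 cultures. For EGFR over ERBB2 the ratios were 2.85 ± 0.213 and 1.28 ± 0.222 (SD, n = 3 each). ERRFI1 stood at 1.62 ± 0.0887 times EGFR with siControl and at 2.50 ± 0.254 times with siZEB1. Among the 5 ligands, TGFA relative to HBEGF went from 0.766 ± 0.0210 to 1.18 ± 0.0747, while the summed ligand level was 7.31 ± 0.201 and 7.19 ± 0.404 CPM per kb, within the spread between cultures. These ratios are descriptions of values tested above gene by gene, and they concern RNA and not the receptors on the cell surface. The shares and the ratios between genes depend on the exon lengths used, and other lengths were not tried.

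Among 53 further genes of the pathway, listed by role, 47 were tested, 2 were called higher and 15 lower. Their median change was -0.11 on the log2 scale, and the groups did not overlap for 19. The share called was 36.2%, against 40.2% of all tested genes (19.0% higher and 21.2% lower). The share without overlap was 40.4%, against 49.5%. Of the other EGF-family ligands, EPGN had no row, NRG1 and NRG3 did not pass the filter, and 1 of the 3 tested was called. NRG2, a neuregulin that binds ERBB3 and ERBB4, was counted 54, 74 and 53 times under siControl and 34, 22 and 26 times under siZEB1. Its level fell to 1.43 ± 0.335 CPM from 2.86 ± 0.395 CPM (SD, n = 3 each), or by 1.0 on the log2 scale (SE 0.23), with an adjusted p = 0.00202 in edgeR's test. EGF itself was at 1.13 ± 0.219 and 1.17 ± 0.133 CPM and was not called (adjusted p = 0.93 in edgeR's test). Of the 5 tested sheddases and sheddase regulators, which govern the release of ligands, 1 was called. It was ADAM10, the protease that cuts BTC and EGF free, at -0.27 (SE 0.080, adjusted p = 0.0118 in edgeR's test) with overlapping groups. ADAM17, the main protease for TGFA, AREG and HBEGF, was at 52.2 ± 6.46 and 52.9 ± 5.30 CPM (SD, n = 3 each, adjusted p = 0.901 in edgeR's test).

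Of 24 adaptors and signal carriers, all tested, 7 were called lower and 2 higher. The share called was 37.5%, against 40.2% of all tested genes (19.0% higher and 21.2% lower). The median change of the list was -0.12 on the log2 scale. The 3 largest of these changes were falls, in the ERK kinases MAP2K2 (-0.52, SE 0.070) and MAP2K1 (-0.42, SE 0.065) and the adaptor SHC1 (-0.45, SE 0.061). SHC1 went from 150 ± 3.75 to 110 ± 4.40 CPM and MAP2K1 from 71.1 ± 2.15 to 53.0 ± 0.557 CPM (SD, n = 3 each), and none of the 3 had overlapping groups. The 2 called higher, named after their values were seen, were NRAS (0.38, SE 0.069) and the phosphatase PTPN11 (0.32, SE 0.076). Of 17 genes of receptor downregulation and endocytic sorting, 15 were tested, 6 were called lower and the other 9 were not called, with a median of -0.13. The share called was 40.0%, against 40.2% of all tested genes in either direction. All of these calls were falls, and 21.2% of all tested genes were called lower. The largest falls were in CBLB, a ubiquitin ligase that marks active receptors (-0.94, SE 0.22), the receptor phosphatase PTPRJ (-0.58, SE 0.072), the endosomal adaptor STAM2 (-0.45, SE 0.089) and LRIG1, a membrane protein that lowers receptor levels (-0.44, SE 0.072). LRIG1 went from 63.4 ± 4.86 to 46.8 ± 0.414 CPM (SD, n = 3 each). CBLB rested on 1.73 ± 0.147 CPM with siZEB1, and CBL, its more abundant relative, was not called at 165 ± 19.8 and 176 ± 20.8 CPM (adjusted p = 0.454 in edgeR's test).

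**Figure D4:**
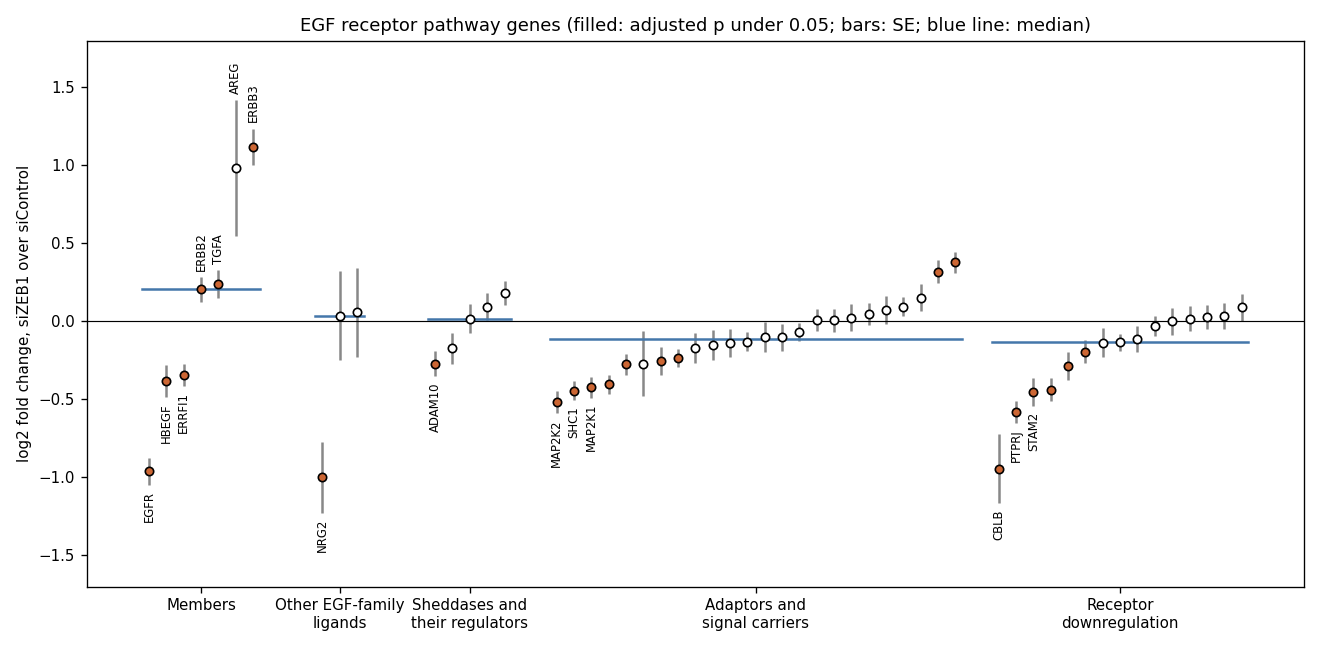
Log2 fold change of siZEB1 over siControl for the 7 tested genes of the EGF receptor system (Members) and for 47 tested genes of 4 pathway lists, ordered within each list. Filled points were called at an adjusted p under 0.05, bars are SE, up to 3 genes per pathway list are labelled, and blue lines mark medians, at -0.12 for adaptors and signal carriers and -0.13 for receptor downregulation. The falls of NRG2 and CBLB, near -1, are comparable in size with that of EGFR. They rest on far fewer reads and have larger SE (0.23 and 0.22, against 0.087 for EGFR).

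The genes nearest to EGFR in pattern were found over the 6 cultures as the smallest distance between log2 values set to 0 at the siControl mean. They were KLHL5, TNRC6A and GTF3C4, at distances of 0.0875, 0.107 and 0.114 and log2 fold changes of -0.95, -0.95 and -0.91. For ERBB3 they were CEACAM19, GOLGA2 and PKP3, at distances of 0.0698, 0.113 and 0.128 and log2 fold changes of 1.16, 1.07 and 1.09. PKP3, a desmosomal plakophilin, went from 24.1 ± 0.647 to 51.3 ± 0.661 CPM (SD, n = 3 each). No test was made of this likeness.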

How the data were processed

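Total RNA from 6 SW480 cultures was sequenced by the authors on an Illumina NextSeq 500, and the deposited values are raw counts of reads per Ensembl gene, without normalization. Per the labels, Trimmomatic, HISAT2, SAMtools and featureCounts were used with hg38, while versions, annotation release and strand setting are not given in the sources used here. Groups and replicate numbers were taken from the sample titles.

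Genes were kept by filterByExpr, scaled by TMM and tested by glmQLFit and glmQLFTest in edgeR 4.0.16 under R 4.3.3, without covariates. The paper's methods name no tool for this comparison. SE is the log2 fold change over the square root of F. Tables and plots were made in Python 3.11.15. Between replicates, chi-square over degrees of freedom was 2.27 to 9.58, so no library was a copy of another. The biological coefficient of variation was 6.58%. Data were simulated for siZEB1 against siControl over 14701 genes, with 95 changed by 1 on the log2 scale and 98 by 0.58. Of these, 89.5% and 72.4% were recovered, and 7.14% of calls were of unchanged genes. In the data 40.2% of tested genes were called, a far larger share, so these rates need not carry over. Exon lengths and overlaps were those of GENCODE 29.

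The members, the pathway lists and the motifs were chosen with earlier results of these data known. Genes named were ZEB1, the 10 members, up to 4 called genes per pathway list with the largest change at a mean of at least 1 CPM, and the 3 genes nearest in pattern to EGFR and to the called member of largest change (CPM plus 0.5, log2). One gene so chosen is not reported here. EGF, ADAM17, CBL, NRAS, PTPN11, EGFR-AS1 and the markers were named besides. Alternatives were DESeq2 1.42.0, other size factors, other filters, a replicate block, each culture left out, and a threshold of 1.5-fold with unadjusted p under 0.05.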

Additional observations from a re-analysis of the deposited data

How the results depend on the processing

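The directions of ZEB1 and the 7 tested members held under each alternative that gave a value, and ZEB1, EGFR, ERBB3, HBEGF and ERRFI1 stayed called in each that kept the threshold on adjusted p. The log2 fold change ran from -1.05 to -0.89 for EGFR, from 1.06 to 1.16 for ERBB3, from -0.42 to -0.35 for HBEGF and from -0.39 to -0.31 for ERRFI1. ERBB2 was no longer called with DESeq2 (0.21), with total library size (0.20), with no filter (0.20) or with the replicate block (0.20, adjusted p = 0.118 in edgeR's test), and TGFA with DESeq2 (0.25), with no filter (0.23) or with the replicate block (0.24, adjusted p = 0.105). The members called higher then numbered 1 with DESeq2, 1 with no filter and 1 with the replicate block, in place of 3. With each culture left out, they numbered 1 to 4, and the log2 fold change ran from 0.17 to 0.26 for ERBB2, from 0.21 to 0.28 for TGFA and from 0.76 to 1.30 for AREG. With calls set by a 1.5-fold change plus unadjusted p under 0.05, 1081 genes were higher and 1402 lower, in place of 2849 and 3186, and 1 member (EGFR, without HBEGF and ERRFI1) was lower in place of 3 and 2 members (ERBB3 and AREG, without ERBB2 and TGFA) were higher in place of 3. Same-numbered cultures deviated from their group means with correlations of -0.0517, -0.0883 and -0.2, and none correlated best with its own number. With 3 cultures per group such values are tied together, so they do not settle whether the cultures were paired. The block left 2289 genes called higher and 2679 lower. AREG could not be fitted at 10 or more counts in every culture or without siZEB1 replicate 2. EREG and BTC were tested only with no filter (adjusted p = 0.259 and 0.603 in edgeR's test), and no fit held ERBB4. Counts of 21 reads or fewer limit AREG.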

Other observations

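An earlier scan of these data had marked the 7-mer GAACACA in the 3′UTRs of genes that fell with siZEB1. Over 12318 tested genes with an annotated 3′UTR in GENCODE 29, 14.0% held it there in at least 1 transcript. Their median log2 fold change was -0.19, against 0.0096 for the genes without it. Since the 7-mer was picked from these same data, this difference is no separate evidence, and 3′UTR lengths were not matched. Of the 7 tested genes of the EGF receptor system, 3 held it in the 3′UTR of at least 1 transcript, namely EGFR, ERRFI1 and TGFA. In EGFR it lay in the 3′UTR of a transcript with a coding sequence of 1392 bases. The 3′UTR of the EGFR transcript with the longest coding sequence, of 3630 bases, did not hold it. In ERRFI1 the transcript with the match in its 3′UTR had a coding sequence of 237 bases. The 3′UTR of the ERRFI1 transcript with the longest coding sequence, of 1386 bases, did not hold it. Coding sequences were not searched for the 7-mer. The EGFR and ERRFI1 matches are thus not shown to lie outside the coding sequence of other transcripts of these genes. In TGFA, which was higher with siZEB1, it lay 3093 bases into the 3579 bases of 1 transcript's 3′UTR. The counts do not separate transcripts, and the part of the 7-mer in these changes was not tested.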
